A study of Homo sapiens with 3 samples.

Results

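The zinc finger genes of human chromosome 19 whose symbol is ZNF plus a number were followed across 3 RNA-seq libraries of a leukaemia cell line with and without knockdown of TRAF7. Members were defined by name, place and gene class: protein-coding in GENCODE release 29, on chromosome 19, with no letter after the number. The group was chosen with earlier results of these data known. The choice gave 240 genes of the 58735 in the files. The cells carry the label KG1a, a line from an acute myeloid leukaemia, and were infected with lentivirus. In 2 libraries (shTRAF7 1 and 2, genotype given as TRAF7 knockdown) the virus carried a short hairpin RNA against TRAF7, a RING-domain ubiquitin ligase. In 1 library (shCtrl, genotype given as wild type) it carried a control hairpin. Total RNA was used for all 3 libraries, and their batch label is the same. Nothing in the labels tells whether the knockdown libraries share a hairpin or come from separate cultures, so p-values measure only the spread between these libraries, and that spread may be technical.

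Most genes of this family encode proteins with a row of C2H2 zinc fingers, each a short fold around a zinc ion that reads a few bases of DNA, and many carry a KRAB domain at the start of the protein. The KRAB domain recruits TRIM28 (KAP1), which brings in the methyltransferase SETDB1 and leads to H3K9me3 heterochromatin, and many family members silence retrotransposons in this way. The genes arose by tandem duplication and lie in clusters along chromosome 19. Duplication also acts within a gene, because successive fingers are like copies with changed contact residues.

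Successive finger units of ZNF888 show the repeat that the family is built from. They are shown because short reads have to be placed among such copies. The coding sequence comes from the GENCODE release 29 transcripts (minus strand of chromosome 19), and capitals mark the linker motif ACNGGNGANAANCCN that joins one finger to the next.
ZNF888 unit 1: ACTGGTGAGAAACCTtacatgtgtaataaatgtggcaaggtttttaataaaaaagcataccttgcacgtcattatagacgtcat
ZNF888 unit 2: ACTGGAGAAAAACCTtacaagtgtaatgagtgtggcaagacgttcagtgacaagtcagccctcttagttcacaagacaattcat
ZNF888 unit 3: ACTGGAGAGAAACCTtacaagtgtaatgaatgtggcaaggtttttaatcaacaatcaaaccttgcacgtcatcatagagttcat
Each unit has 84 bases, and units 2 and 3 share 67.9% and 88.1% of positions with unit 1. Over all members the median number of fingers found in the longest coding sequence was 12, with a range of 0 to 39. A median of 4.75% of the 50-base words of a member's transcripts also occurred in transcripts of other genes, and 32 members had more than 20%. Such words come from gene copies and also from other genes annotated at the same place. Exons of 132 members overlap those of another gene, in 9 of them over more than 50% of the exon bases. ZNF177 shares 86.8% of its words, but with no other member, and 90.8% of its exon bases are overlapped. The values of the 32 members are uncertain: reads could have been split between copies or overlapping genes, or dropped. The sources used here do not say how the authors treated them.

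Reads assigned to genes numbered 16221721 and 16254461 in the shTRAF7 libraries and 16014485 in the shCtrl library. The authors deposited FPKM, a level that scales reads to exon length and to library size, from which whole reads could be recovered. The TRAF7 transcript checked the labels: it stood at 15.6 and 18.3 FPKM in the shTRAF7 libraries, against 46.5 FPKM in the shCtrl library. The markers of the labelled line did not all appear. CD34, the surface antigen for which KG1a is best known, had 0.00697 and 0.0667 FPKM in the shTRAF7 libraries and 0 FPKM in the shCtrl library, and FLT3 was listed at 0 in all 3. The erythroid factor KLF1, at 55.8 to 61.7 FPKM, and the epithelial markers EPCAM and KRT18, at up to 23.5 and 69.5 FPKM, were present in every library, as was the leukocyte marker SPN at 32.9 to 46.2 FPKM. The cells are therefore called by their label only.

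A minority of the chromosome 19 ZNF genes were above 1 FPKM, and the number was close in the 3 libraries. It was 106 and 108 of 240 in the shTRAF7 libraries (44.2% and 45.0%) and 104 in the shCtrl library (43.3%). Among all protein-coding genes the shares were 48.8% and 49.6% in the shTRAF7 libraries and 50.1% in the shCtrl library. 100 members were above 1 FPKM in all 3 libraries and 128 at or below it in all 3. The remaining 12 crossed the level between libraries. Of these, 4 were above it in both shTRAF7 libraries and not in shCtrl (ZNF69, ZNF180, ZNF573 and ZNF671), and 2 were above it in shCtrl alone (ZNF17 and ZNF846). These 6 were named after their values were seen. All of them lay between 0.755 and 1.53 FPKM in every library.

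The members took a small part of the RNA. Their summed reads were 32068 and 32696 in the shTRAF7 libraries and 33731 in the shCtrl library, or 0.198%, 0.201% and 0.211% of the assigned reads. Reads of sense-intronic transcripts moved in the same order, at 448 and 476 RPM (reads scaled to all assigned reads) in the shTRAF7 libraries and 553 RPM in the shCtrl library. Their part in the difference was not tested. Over the 240 members the median of the mean FPKM was 0.701, 17 members had a mean of at least 5 FPKM, and 40 were listed at 0 in all 3 libraries. With a floor of 3 reads, which covers counting error only, 63 members did not exceed the floor in any library. ZNF genes on other chromosomes were more often measured: 155 of 235 had a mean of at least 1 FPKM, against 105 of 240 on chromosome 19, and 629 of the 1212 remaining protein-coding genes of chromosome 19 did.

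**Figure D1:**
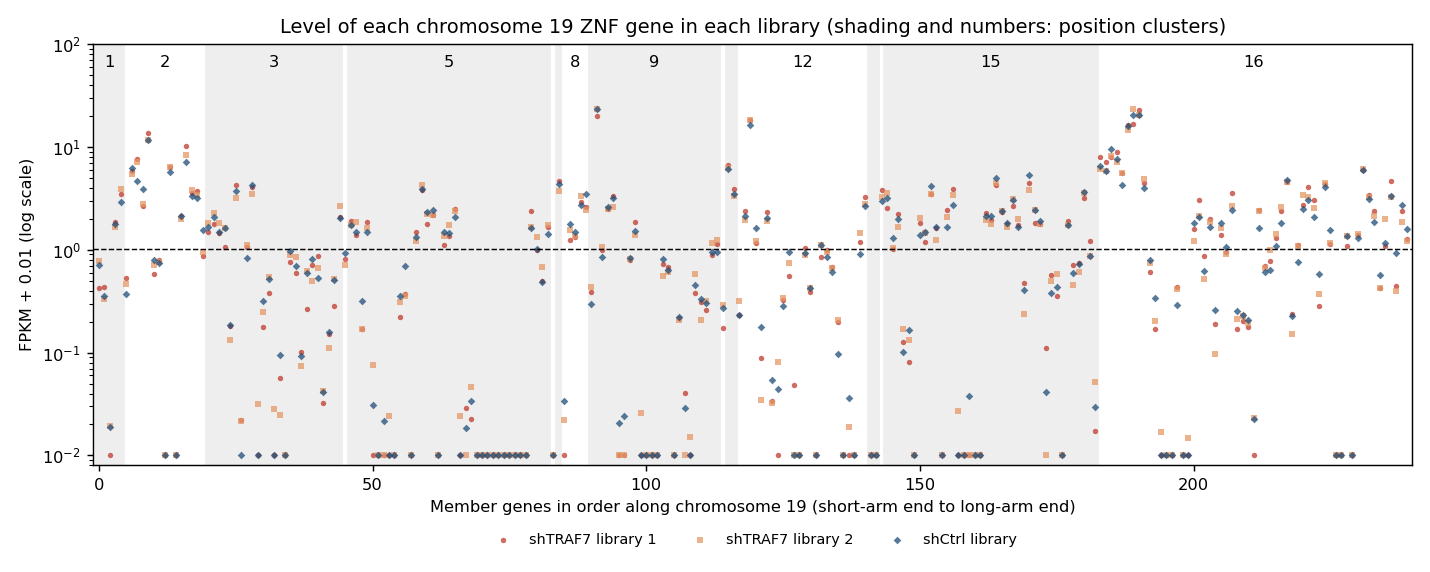
FPKM plus 0.01 (log scale) of each of the 240 members, in order along chromosome 19, in both shTRAF7 libraries and the shCtrl library, with the level of 1 FPKM dashed and position clusters shaded and numbered where they hold 5 or more members. Points of the 3 libraries mostly lie on one another, 3 members exceed 20 FPKM in a library, and many members of cluster 5 lie at the bottom.

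A handful of members stood well above the rest, and in none of the 5 highest was a KRAB pattern found. ZNF146, known as OZF for a protein made almost only of zinc fingers, had 20.1 and 23.5 FPKM in the shTRAF7 libraries and 23.1 FPKM in the shCtrl library. The shCtrl value lay between the knockdown values. ZNF787 had 22.8 and 20.3 FPKM in the shTRAF7 libraries and 20.3 FPKM in the shCtrl library. ZNF581 had 16.7 and 23.5 FPKM in the shTRAF7 libraries and 20.2 FPKM in the shCtrl library, and again the knockdown libraries lay on either side. For ZNF787 the second knockdown value and shCtrl were equal to 3 digits. ZNF428 had 18.4 and 18.3 FPKM in the shTRAF7 libraries, against 16.1 FPKM in the shCtrl library. ZNF580, reported to act in endothelial cell migration, had 16.2 and 14.7 FPKM in the shTRAF7 libraries and 16.1 FPKM in the shCtrl library. None of these 5 had shTRAF7 intervals that both stood apart from the shCtrl interval (exact 95% Poisson intervals of the reads). Several share exonic sequence with a neighbour. ZNF580 and ZNF581 overlap each other and CCDC106 on the same strand, ZNF146 overlaps ZNF565 and ZNF428 overlaps SRRM5 on opposite strands, and the sources used here do not say whether the counting used strand.

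A pattern for the A box of the KRAB domain was found in the first part of the longest coding sequence of 199 members and not found in 41. The pattern can miss a diverged box, so the group without it may hold some KRAB genes. Of the members without the pattern, 30 of 41 (73.2%) had a mean of at least 1 FPKM and the median of the means was 2.89 FPKM. Of the members with it, 75 of 199 (37.7%) did and the median was 0.623 FPKM. The 17 members whose mean reached 5 FPKM split into 14 without the pattern and 3 with it, namely ZNF317, ZNF266 and ZNF274. ZNF274, which is known to bring SETDB1 to the 3′ ends of other zinc finger genes, had 5.95 and 6.12 FPKM in the shTRAF7 libraries and 5.94 FPKM in the shCtrl library. It and ZNF266 were named after their values were seen. Over all members the number of fingers showed little split: the median was 12 among members whose mean reached 1 FPKM and 13 among the others. With the pattern both medians were 13. Without it the median was 9 among members whose mean reached 1 FPKM and 12 among the others. These are descriptions of 1 set of genes in 3 libraries, added after the data were seen, and carry no test.

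**Figure D2:**
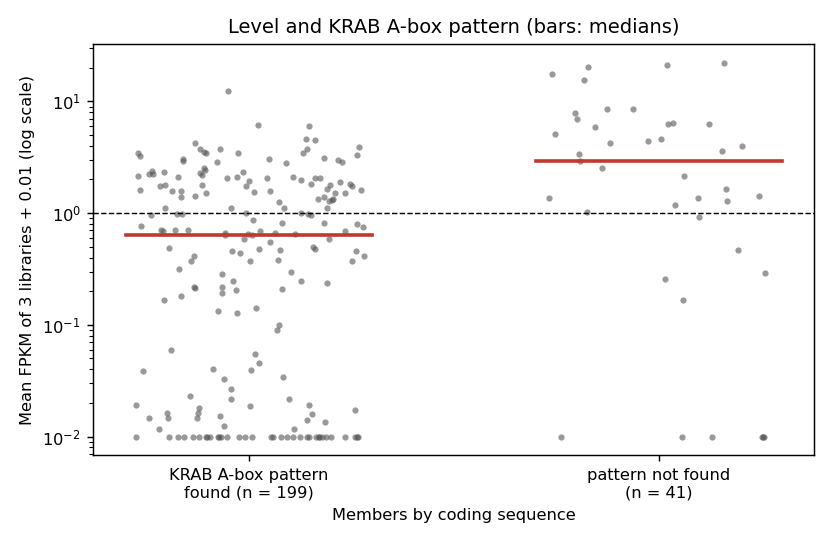
Mean FPKM of the 3 libraries plus 0.01 (log scale) for members with a KRAB A-box pattern (n = 199) and without it (n = 41); each point is a member, bars are medians and the dashed line marks 1 FPKM. The medians are 0.623 FPKM with the pattern and 2.89 FPKM without it, and both groups span from 0 to above 10 FPKM.

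Along the chromosome the members fell into 16 position clusters, where a gap of more than 1 Mb between neighbouring gene starts began a new one. Clusters are numbered from the end of the short arm, and 7 of them, with 15 or more members each, held 221 members. Coordinates are from GENCODE release 29 on GRCh38. Cluster 2, at 7069444 to 9793180, had 10 of 15 members at a mean of 1 FPKM or more. Clusters 15 (51571298 to 53580269) and 16 (55476332 to 58481230) had 21 of 39 and 32 of 57. The remaining large clusters had smaller shares: 7 of 25 in cluster 3 (11483427 to 12640098), 13 of 37 in cluster 5 (19668796 to 24129961), 5 of 24 in cluster 9 (36182060 to 37817300) and 7 of 24 in cluster 12 (43525497 to 45076588). The small clusters 4, 6, 10 and 13 had no member at that level.

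The sum of a cluster's FPKM values was close between libraries. Cluster 16, which runs to the end of the long arm, summed to 166 and 161 FPKM in the shTRAF7 libraries and 157 FPKM in the shCtrl library. Cluster 15 gave 54.4 and 53.9 FPKM in the shTRAF7 libraries and 56.2 FPKM in the shCtrl library. Cluster 2 gave 58.4 and 53.6 FPKM in the shTRAF7 libraries and 51.3 FPKM in the shCtrl library. In both of clusters 2 and 16 the shTRAF7 sums were above the shCtrl sum, and in cluster 15 below it. Cluster 9 gave 34.4 and 37.0 FPKM in the shTRAF7 libraries and 37.0 FPKM in the shCtrl library, with ZNF146 the largest part. Cluster 5, with 37 members, summed to only 25.5 and 26.8 FPKM in the shTRAF7 libraries and 25.5 FPKM in the shCtrl library.

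The leading genes of the other clusters differed more between libraries than the sums of the large clusters did in some cases. For ZNF317 and ZNF507 the Poisson intervals of the shTRAF7 libraries were apart from each other. In cluster 1, ZNF77 had 3.45 and 3.89 FPKM in the shTRAF7 libraries and 2.89 FPKM in the shCtrl library. ZNF317 led cluster 2 with 13.7 and 11.5 FPKM in the shTRAF7 libraries and 11.7 FPKM in the shCtrl library. ZNF700 led cluster 3 with 4.05 and 3.45 FPKM in the shTRAF7 libraries and 4.25 FPKM in the shCtrl library. Of these 3, only ZNF77 and ZNF700 had both shTRAF7 values on one side of shCtrl, above it and below it in turn. ZNF714 led cluster 5 with 3.79 and 4.28 FPKM in the shTRAF7 libraries and 3.92 FPKM in the shCtrl library. ZNF507, alone in cluster 7, had 4.62 and 3.71 FPKM in the shTRAF7 libraries and 4.35 FPKM in the shCtrl library. ZNF30 led cluster 8 with 2.90 and 3.32 FPKM in the shTRAF7 libraries and 2.74 FPKM in the shCtrl library. For ZNF714 and ZNF507 the shCtrl value lay between the knockdown values. ZNF574 led cluster 11 with 6.64 and 6.26 FPKM in the shTRAF7 libraries and 6.04 FPKM in the shCtrl library. ZNF473, known as ZFP100 and a factor of histone pre-mRNA 3′ end processing, stood alone in cluster 14 with 3.81 and 3.27 FPKM in the shTRAF7 libraries and 2.96 FPKM in the shCtrl library. ZNF83 led cluster 15 with 4.24 and 4.47 FPKM in the shTRAF7 libraries and 4.97 FPKM in the shCtrl library. The first and second of these genes were above shCtrl in both shTRAF7 libraries and ZNF83 was below it, and all 3 had Poisson intervals that overlapped with shCtrl in at least 1 library.

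Neighbouring members had like levels. Over 224 pairs of neighbours within a cluster, Spearman's rho of the mean FPKM was 0.438, a description of genes that share the same 3 libraries and often sequence. Both neighbours had a mean of at least 1 FPKM in 59 pairs, both were under it in 91, and 74 pairs were mixed. The fitted log2 fold changes of the 59 measured pairs had a rho of 0.101.

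The longest near-silent stretch lay in cluster 5 and was chosen after its values were seen. It runs over 13 neighbouring members from ZNF43 to ZNF91, chr19:21804949-23395560. Their summed reads were 3 and 5 in the shTRAF7 libraries and 3 in the shCtrl library. ZNF257 was the highest, with a mean of 0.0243 FPKM, and 10 of the 13 were listed at 0 in all 3 libraries. One of those is ZNF91, the KRAB protein known to repress SVA retrotransposons, for which the floor of 3 reads allows up to 0.0185 and 0.0177 FPKM in the shTRAF7 libraries and 0.0171 FPKM in the shCtrl library. The stretch holds 80 annotated genes of all classes, none of which exceeded 3 reads in any library, with 3 and 6 reads in the shTRAF7 libraries and 8 in the shCtrl library over all of them.

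The genes on either side of the stretch were transcribed. ZNF100 on its left had 2.50 and 2.37 FPKM in the shTRAF7 libraries and 2.05 FPKM in the shCtrl library. ZNF675 on its right, known as TIZ and reported to inhibit TRAF6 signalling, had 2.35 and 1.67 FPKM in the shTRAF7 libraries and 1.61 FPKM in the shCtrl library. Both flanking genes were higher in both shTRAF7 libraries, with intervals that overlapped the shCtrl interval in at least 1 library. In the same cluster ZNF93, known to repress L1 retrotransposons, had 0 and 6 reads in the shTRAF7 libraries and 2 in the shCtrl library. Cluster 5 held 19 of the 63 members that did not exceed 3 reads. A median of 8.05% of the 50-base words of the 13 members occurred in other genes, with a range of 2.63% to 48.7%. The highest share is that of ZNF724, of which 44.8% of the exon bases are overlapped by another gene. Only 1.67% of its words occur in the member closest to it. ZNF98 and ZNF492 are copies by this measure, with 37.6% and 29.4% of their words in each other. The part of such shared words in the low values was not tested.

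**Figure D3:**
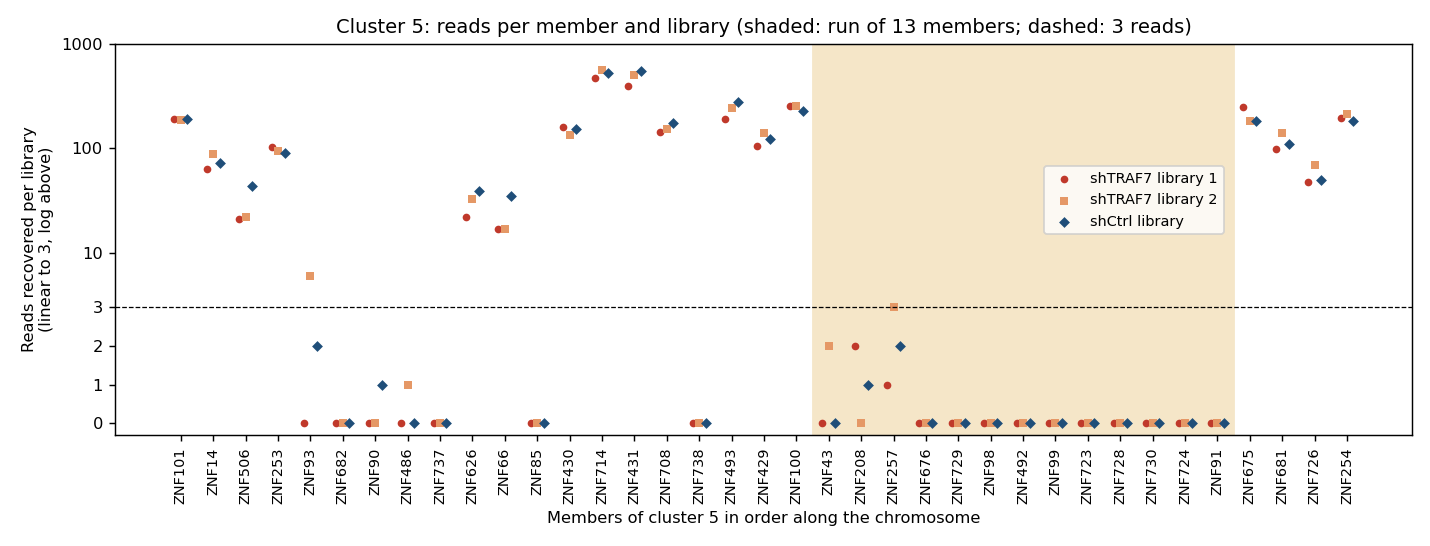
Reads per member of cluster 5, in order along the chromosome, in both shTRAF7 libraries and the shCtrl library; the axis is linear up to 3 reads (dashed) and logarithmic above. In the shaded run of 13 members no point exceeds 3 reads, while ZNF100 and ZNF675 on either side have 184 to 257 reads.

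Some transcribed and near-silent members of cluster 5 share a short stretch of promoter sequence. Lines of 30 bases from the RefSeq promoter table (GRCh38.p14) are shown for 3 members of the stretch and 3 transcribed ones, each 5′ to 3′ on the gene's own strand. Capitals mark CTTCCGG, the reverse complement of the ETS-family word CCGGAAG. The 6 genes were picked among those whose promoter holds this word, and each line was cut around it.
ZNF91 (near-silent): cggacagggcggCTTCCGGgatgtggctgg
ZNF43 (near-silent): aggacagggcggCTTCCGGgatgtggcggg
ZNF257 (near-silent): cggacagggtggCTTCCGGgtttggcgggt
ZNF430 (transcribed): cggacagggcggCTTCCGGgtttggcgggg
ZNF431 (transcribed): cggacaggacggCTTCCGGgatgtggcggg
ZNF681 (transcribed): cagacagggcggCTTCCGGgattggcgggg
These windows lie at chr19:23395478-23395507 (minus strand), chr19:21836189-21836218 (minus), chr19:22052454-22052483 (plus), chr19:21020622-21020651 (plus), chr19:21142004-21142033 (plus) and chr19:23758897-23758926 (minus), in the order of the lines. The mean levels of the 6 genes, in the same order, were 0, 0.00474, 0.0243, 1.34, 2.11 and 1.11 FPKM. The windows lie before the RefSeq start, and only that of ZNF681 lies wholly before the GENCODE start. For ZNF43 the RefSeq start does not match that of the GENCODE gene, which lies at 21852125, so its window is inside that gene. The windows of ZNF91, ZNF257 and ZNF430 also lie inside the GENCODE genes, which start at 23395560, 22052452 and 21020620. The ZNF431 window spans the GENCODE start at 21142024.

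Of the 240 members, 209 had an entry in the promoter table, and the 250 bases before the listed start were searched. The word CCGGAAG, on either strand, was in 66 of the 209 (31.6%), against 8.82% of all 27326 promoters and 11.8% of those of protein-coding genes. Within the members the share was 31.2% for those whose mean reached 1 FPKM and 31.9% for those under it. In cluster 5 it was in 19 of 29 promoters, among them all 8 entries of the near-silent stretch and 6 of 12 entries of members whose mean reached 1 FPKM. Cluster 3 held the word in 1 of 24. The GC box GGGCGG, on either strand, was in 67.0% of member promoters, against 42.3% of all promoters and 56.0% of those of protein-coding genes. In 4 of the 6 lines above it directly precedes the ETS word. A match is a description of letters, not of binding.

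No member passed the test of knockdown against control. Of the 240 members, 105 had a mean of at least 1 FPKM and entered limma on log2(FPKM + 1). At an adjusted p under 0.05, 0 of the 105 were called, where the share over all 12640 genes tested was 0.0%. At an unadjusted p under 0.05, 1 member was found (ZNF414), against 9.19% of all genes. On the recovered reads limma-voom called 0 of 165 members, against 0.865% of all genes, and 4 had an unadjusted p under 0.05, where 12.1% of all genes did. The limma fit called no gene at all, TRAF7 included (limma adjusted p = 0.274; limma-voom adjusted p = 2.69e-05).

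The direction of the members was close to that of all genes. Of the 105, 33 were lower than shCtrl in both shTRAF7 libraries, against 30.8% of all genes. The number higher in both was 39, against 42.5%, and 33 were split. This balance moved with the scaling: 46 were lower and 25 higher when scaled to all assigned reads, and 24 lower and 53 higher under quantile normalization. The median fitted log2 fold change of the members was 0.04 and that of all genes 0.04; both turned slightly negative under median-of-ratios rescaling and under scaling to all assigned reads. Fitted values ranged from -0.41 to 0.57, and none of the 105 was at least 2-fold from shCtrl in both shTRAF7 libraries, where 1.11% of all genes were 2-fold lower and 1.06% 2-fold higher. The median size of the fitted log2 fold change was 0.13, against 0.19 over all genes, and the median gap between the shTRAF7 libraries was 0.15, against 0.17. The added 1 FPKM shrinks the change of low genes, and its part in these sizes was not tested. In 50 of the 105 (47.6%) the fold change exceeded that gene's own gap, where 52.5% of all genes did.

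By counting error alone, 3 members were lower and 3 higher, with the Poisson intervals of both shTRAF7 libraries apart from the shCtrl interval. Over all genes this held for 7.81% lower and 16.0% higher. The shTRAF7 libraries stood apart from each other in 19 of the 105 members, against 34.0% of all genes. Depth differed between the sets: the median was 198 reads over measured members and 475 reads over all genes tested. Its part in these shares was not tested.

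ZNF414 had the lowest p of the members. It had 7.57 FPKM (95% Poisson interval 6.77 to 8.44) and 7.18 FPKM (6.42 to 8.01) in the shTRAF7 libraries, against 4.64 FPKM (4.04 to 5.30) in the shCtrl library. Both shTRAF7 values lay above shCtrl and near each other. This gave a log2 fold change of 0.57 ± 0.17 (SE; adjusted p = 0.469 by limma and 0.279 by limma-voom). ZNF414 (ENSG00000133250, chromosome 19, 8509678 to 8514164, minus strand) encodes a protein in which 3 fingers and no KRAB pattern were found, and no exon of another gene overlaps it. Its promoter is shown as the one of the member with the lowest p, chr19:8514168-8514417 of GRCh38.p14 from RefSeq, 5′ to 3′ on the minus strand, with matches to the GC box word CCGCCC (the reverse complement of GGGCGG) in capitals.
ZNF414 promoter: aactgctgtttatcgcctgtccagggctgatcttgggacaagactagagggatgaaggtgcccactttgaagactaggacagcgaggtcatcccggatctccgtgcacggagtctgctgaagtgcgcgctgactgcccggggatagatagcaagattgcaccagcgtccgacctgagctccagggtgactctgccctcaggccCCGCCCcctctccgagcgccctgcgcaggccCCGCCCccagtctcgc
The window holds 2 such words and no CCGGAAG.

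The next 4 members by p on the higher side had smaller differences. ZNF784 had 5.56 FPKM in each of the shTRAF7 libraries and 4.29 FPKM in the shCtrl library (log2 fold change 0.31; limma adjusted p = 0.632). ZNF480 had 3.91 and 3.41 FPKM in the shTRAF7 libraries and 2.68 FPKM in the shCtrl library (0.34; limma adjusted p = 0.638). For both, the interval of at least 1 shTRAF7 library overlapped that of shCtrl. ZNF550 had 2.40 and 2.35 FPKM in the shTRAF7 libraries, against 1.63 FPKM in the shCtrl library (0.36; limma adjusted p = 0.647). It overlaps ZNF549 on the opposite strand. ZNF121, reported to interact with MYC, had 10.3 and 8.30 FPKM in the shTRAF7 libraries, against 7.16 FPKM in the shCtrl library (0.33; limma adjusted p = 0.661). Its shTRAF7 libraries also stood apart from each other.

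On the lower side the 5 members with the lowest p ranged from a log2 fold change of -0.24 to -0.41. ZNF558, a KRAB protein known in human neural progenitors to repress SPATA18, had 2.68 FPKM (2.40 to 2.98) and 2.76 FPKM (2.48 to 3.05) in the shTRAF7 libraries, against 3.90 FPKM (3.58 to 4.24) in the shCtrl library. Both shTRAF7 values lay below shCtrl without overlap. This gave a log2 fold change of -0.40 ± 0.19 (SE; adjusted p = 0.584 by limma and 0.334 by limma-voom). ZNF792 had 2.56 and 2.40 FPKM in the shTRAF7 libraries, against 3.46 FPKM in the shCtrl library (-0.36; limma adjusted p = 0.624). ZNF888, the gene of the finger units above, had 4.41 and 3.79 FPKM in the shTRAF7 libraries and 5.37 FPKM in the shCtrl library (-0.32; limma adjusted p = 0.641). Of its 50-base words 16.3% occur in other genes, 8.05% in ZNF701, so its value is uncertain. ZNF846 had 0.854 and 0.943 FPKM in the shTRAF7 libraries, against 1.53 FPKM in the shCtrl library (-0.41; limma adjusted p = 0.673). ZNF524, reported to bind telomeres and without a KRAB pattern, had 7.98 and 8.05 FPKM in the shTRAF7 libraries and 9.62 FPKM in the shCtrl library (-0.24; limma adjusted p = 0.708). It overlaps FIZ1 on the opposite strand.

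**Figure D4:**
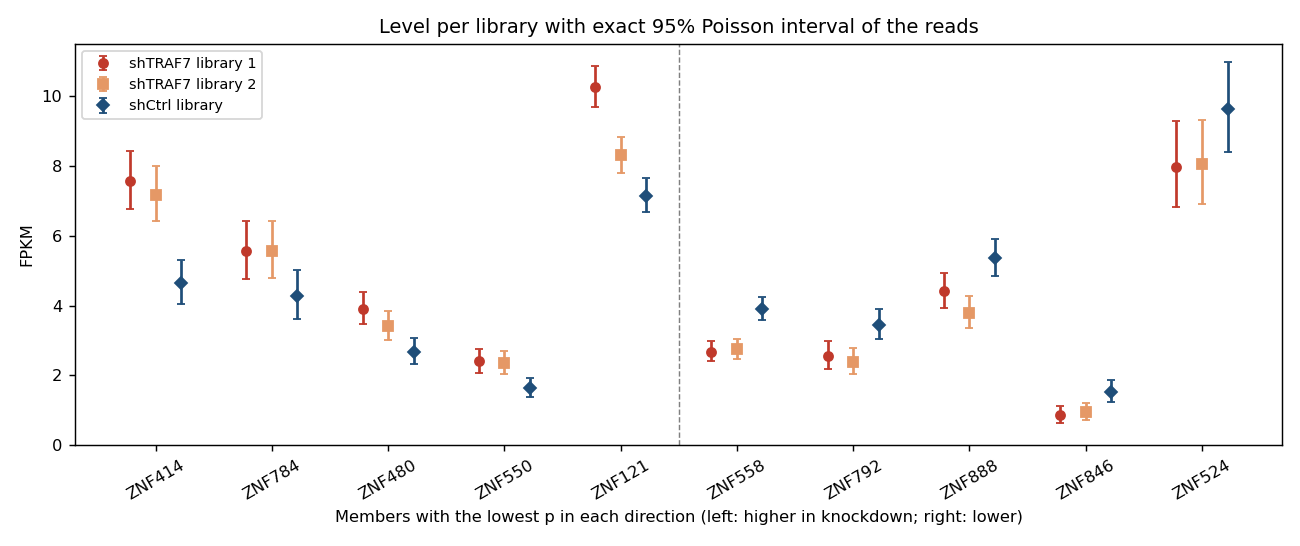
FPKM with exact 95% Poisson intervals of the reads in both shTRAF7 libraries and the shCtrl library for the 5 members with the lowest p on the higher side (left of the dashed line) and on the lower side (right). The shTRAF7 and shCtrl intervals are clear of each other for ZNF414, ZNF550, ZNF121, ZNF558, ZNF792 and ZNF846, and limma's adjusted p was between 0.469 and 0.708.

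Of 60 members under a mean of 1 FPKM with a mean of at least 10 reads, 2 had shTRAF7 intervals that both lay under the shCtrl interval and 0 had both above it. Over all genes in that range the shares were 5.71% and 0.564%. The 2 were named after their values were seen. ZNF814 had 0.275 and 0.361 FPKM in the shTRAF7 libraries, against 0.573 FPKM in the shCtrl library, from 54 and 74 reads against 122. ZNF132 had 0.437 and 0.384 FPKM in the shTRAF7 libraries, against 0.924 FPKM in the shCtrl library, from 24 and 22 reads against 55. Their limma-voom adjusted p was 0.340 and 0.350. ZNF814 shares 26.9% of its 50-base words with other genes and overlaps ZNF587. At the edge of the filter, ZNF226 (0.835 and 1.10 FPKM in shTRAF7, 1.10 FPKM in shCtrl) and ZNF681 (0.979 and 1.33 FPKM in shTRAF7, 1.01 FPKM in shCtrl) had means just inside 1 FPKM. ZNF607 (0.881 and 1.14 FPKM in shTRAF7, 0.950 FPKM in shCtrl) and ZNF69 (1.05 and 1.09 FPKM in shTRAF7, 0.828 FPKM in shCtrl) had means just outside.

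By position, no cluster stood far from the others. The median log2 difference from shCtrl, given for shTRAF7 1 and then shTRAF7 2, was 0.10 and 0.04 in cluster 2, -0.06 and 0.07 in cluster 3, and -0.02 and 0.08 in cluster 5. It was 0.04 and -0.04 in cluster 9, 0.14 and 0.00 in cluster 12, -0.06 and -0.01 in cluster 15, and 0.12 and 0.05 in cluster 16. Among the 12 clusters with a measured member, the median was positive in both libraries in 5, negative in both in 2 and of opposite sign in 5. Cluster 8, with 4 measured members, was negative in both (-0.20 and -0.10), ZNF792 among them. Cluster 15 had 11 members lower in both libraries, 4 higher and 6 split, though its fitted median of -0.06 became 0.01 under quantile normalization. Cluster 16 had 8 lower, 16 higher and 8 split. Both shTRAF7 libraries were set against the same shCtrl library, so their like signs are not independent.

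**Figure D5:**
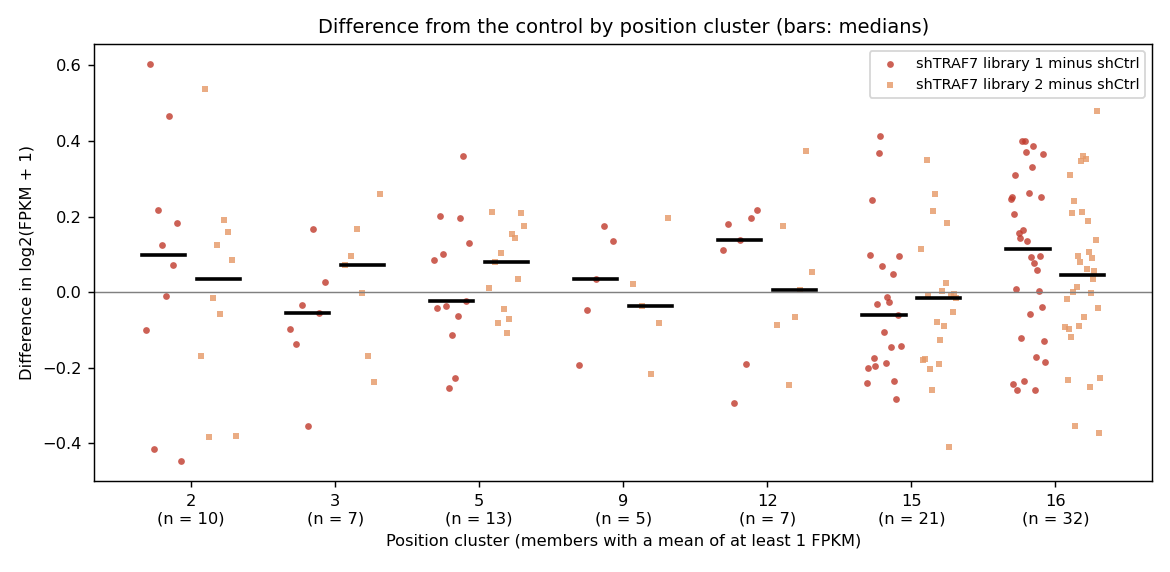
Difference in log2(FPKM + 1) of shTRAF7 library 1 and shTRAF7 library 2 from shCtrl for measured members of the 7 clusters with 15 or more members; points are members and bars are medians. Every cluster spans 0 in both libraries and the medians lie between -0.06 and 0.14.

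The factors that KRAB proteins work through were present at far higher levels than most members. Of a list of 24 corepressor and heterochromatin genes, 23 had a mean of at least 1 FPKM, and ZFP57, a KRAB gene that guards imprints, was listed at 0. In both shTRAF7 libraries 12 were higher than shCtrl (52.2%, against 42.5% of all genes) and 6 lower (26.1%, against 30.8%), with 5 split and a median log2 fold change of 0.07. Limma called 0, and 0 had an unadjusted p under 0.05, where 9.19% of all genes did. Limma-voom called 0, with 1 at an unadjusted p under 0.05, where 12.1% of all genes were. Poisson intervals of both shTRAF7 libraries lay above shCtrl in 6 of the 23 (26.1%, against 16.0% of all genes). They lay below it in 1 (4.35%, against 7.81%). In 11 the shTRAF7 libraries stood apart from each other (47.8%, against 34.0%). The median depth was 1556 reads over the 23 genes and 475 reads over all genes tested, and its part in these Poisson shares was not tested. The 3 with the lowest p were all on the higher side. UHRF1, which reads hemimethylated DNA, had 31.1 and 17.9 FPKM in the shTRAF7 libraries, against 13.9 FPKM in the shCtrl library (log2 fold change 0.73; limma adjusted p = 0.566). The shTRAF7 libraries differed more from each other than the second did from shCtrl. DNMT3B, a de novo DNA methyltransferase, had 32.2 and 30.8 FPKM in the shTRAF7 libraries, against 24.5 FPKM in the shCtrl library (0.35; limma adjusted p = 0.589). TRIM28, the partner of the KRAB domain, had 236 and 192 FPKM in the shTRAF7 libraries, against 171 FPKM in the shCtrl library (0.32; limma adjusted p = 0.616). As for UHRF1, its shTRAF7 libraries differed more from each other than the second did from shCtrl.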

How the data were processed

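Per the labels' protocols, total RNA of lentivirus-infected cells was made into Illumina libraries. The authors deposited FPKM values, 1 per gene and library. Per the submitters' processing notes the tools include Bowtie and BWA and the build is hg19, with no version or role; no source used here gives the counting tool. All 58735 identifiers matched GENCODE release 29 (Ensembl release 94, GRCh38), and FPKM times its exon length gave whole reads for 100% of values (tolerance 0.05). Reads per library are in the text.

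The main test was limma 3.58.1 (R 4.3.3), with an intensity trend, on log2(FPKM + 1), which understates the change of low genes. Genes needed a mean of at least 1 FPKM, and p-values were Benjamini-Hochberg adjusted over 12640 genes. The files hold FPKM, so the count test that the design named for counts was left out. Limma-voom ran on recovered reads (mean of at least 10). Poisson intervals are exact and, like the floor of 3 reads, cover counting error only. Scripts were tested on simulated data, with 2 knockdown libraries against 1 control and changes of 2-fold and 4-fold. Of 189 changed genes tested, limma called 40 of those changed 2-fold and 91 of those changed 4-fold, and made 94 false calls. Limma-voom, with 200 changed genes, called 60 and 99 and made 12 false calls. Both tests therefore missed some of the simulated 2-fold changes. The simulated spread was a fixed setting, the same for every gene, and only genes above a minimum of reads were changed. These counts therefore do not give the power or the false calls of the tests on the real libraries.

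Members and lists were chosen with earlier results of these data known. Named genes are the 5 highest means, the 5 lowest p in each direction, any 2-fold in both libraries (0), all of these with a mean of at least 1 FPKM, each cluster's highest, 2 members on either side of 1 FPKM, and 3 corepressor genes with the lowest p. Alternatives were other scalings, filters, pseudocounts, fits and cluster gaps, and each knockdown library alone.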

Additional observations from a re-analysis of the deposited data

How the results depend on the processing

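Under every alternative run, limma and limma-voom called 0 members at an adjusted p under 0.05. The median log2 fold change of the members, 0.04 as reported, was -0.00515 under median-of-ratios rescaling, 0.0692 under quantile normalization, -0.0469 under scaling to all assigned reads, 0.00098 with no filter and 0.0774 with a mean of at least 5 FPKM; it ranged from 0.00201 to 0.0473 with 1 knockdown library left out. The number higher in both (39) was 25 when scaled to all assigned reads, 7 with a mean of at least 5 FPKM, 58 with no filter and 56 by limma-voom. The number lower in both (33) was 68 with no filter, 2 with a mean of at least 5 FPKM and 56 by limma-voom. With 1 knockdown library left out, members are counted by the remaining library alone, so those split before fall on a side. That gave between 53 and 58 higher and between 47 and 52 lower, which are not counts in both libraries. The gap between the highest and lowest median of the 7 clusters with 15 or more members (0.17; 0.34 over all 12 with a measured member) was 0.26 with a mean of at least 5 FPKM, 0.0948 with a pseudocount of 5 and 0.23 by limma-voom. At 2 FPKM, 64 and 61 members in the shTRAF7 libraries and 62 in the shCtrl library were above the level. Under alternatives that keep all libraries, signs reversed for ZNF714 (-0.00882 under median-of-ratios rescaling, -0.0512 when scaled to all assigned reads), ZNF787 (-0.0440 under quantile normalization, -0.0237 when scaled to all assigned reads), ZNF226 (0.0237 under quantile normalization) and ZNF574 (-0.0108 when scaled to all assigned reads). With 1 knockdown library left out, the sign turned for 9 of the 26 named members with a fit: ZNF146, ZNF787, ZNF581, ZNF317, ZNF226, ZNF580, ZNF714, ZNF507 and ZNF681. Filters and leaving out a library change what is counted, and the cause of the remaining differences was not tested. No paired analysis was possible because the control has 1 library, and leaving out a knockdown library leaves 1 against 1, a value with no test. A median of 198 reads per measured member limits what small differences can be seen.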

Other observations

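Other zinc finger names on chromosome 19 (ZNF with a letter, ZFP, ZIM and ZSCAN), which the choice of members left out, were mostly low. Of these 20 genes, 4 and 4 were above 1 FPKM in the shTRAF7 libraries and 5 in the shCtrl library. Their median was 0.225 and 0.269 FPKM in the shTRAF7 libraries and 0.316 FPKM in the shCtrl library.

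Runs of low members were found outside cluster 5 as well, chosen after their values were seen. In cluster 3, 15 neighbouring members from ZNF763 to ZNF490 (chr19:11965037-12640098) stayed under a mean of 1 FPKM, with 293 and 378 reads in the shTRAF7 libraries and 409 in the shCtrl library. A median of 24.1% of their 50-base words occurred in other genes, which include genes that overlap them, as for ZNF625 and ZNF709. In cluster 9, 14 members from ZNF790 to ZNF607 (chr19:36817428-37719790) did, with 284 and 301 reads in the shTRAF7 libraries and 323 in the shCtrl library, and a median of 3.10% shared words. In both runs the summed reads were lower in both shTRAF7 libraries, and sense-intronic reads were lower in them too; their part in this was not tested.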
